A study of Mus musculus with 14 samples.

Results

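Chylomicrons are the lipid particles in which enterocytes, the absorptive cells of the small intestine, send dietary fat to the lymph. The 10 genes described here encode parts of that route. Apob is the structural protein of the particle, and Mttp, microsomal triglyceride transfer protein, loads lipid onto it in the endoplasmic reticulum. Apoa1, Apoa2, Apoa4, Apoc2 and Apoc3 are smaller apolipoproteins that bind the surface of lipoprotein particles. Fabp1 and Fabp2 carry fatty acids inside the enterocyte, and Cd36 is a fatty acid transporter at the cell surface. All 10 had a row among the 18781 genes of the deposited table, and 9 of them passed the filter on low values (a mean of at least 10 on the linear scale), as did 12802 genes in all. The exception was Apoc2. The genes were chosen by name, in part because Apoa2 was among the largest rises in organoids without Rnaseh2b. The values of Rnaseh2b-deficient organoids are therefore given as a description, with no test.

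The samples were crypt organoids, three-dimensional epithelial cultures grown in Matrigel from small intestinal crypts of mice, without treatment. WT organoids (n = 4) carried the label ATG16L1flox/flox_RNaseH2Bflox/flox, that is, floxed alleles of both genes and no Cre recombinase. Rnaseh2bΔIEC organoids (n = 2) were RNaseH2Bflox/flox_VillinCre+/-, Atg16l1ΔIEC organoids (n = 4) were ATG16L1flox/flox_VillinCre+/-, and Atg16l1/Rnaseh2bΔIEC organoids (n = 4) carried the floxed alleles of both genes with VillinCre+/-. The Villin promoter drives Cre in the intestinal epithelium, so every knockout line carried the transgene and WT did not. RNase H2, of which Rnaseh2b encodes a subunit, removes ribonucleotides from DNA, and Atg16l1 is needed for autophagy. A further 2 Rnaseh2bΔIEC libraries had been left out by the authors for their read counts. Values are on a log2 scale by an unnamed transformation, so a difference of 1 is a 2-fold change of the deposited value. The Y-linked Ddx3y stayed at 6.04 to 6.20 in the female libraries described below, so low levels and differences from them may be compressed. The depth of the libraries is unknown.

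Each targeted gene was lowest in its single knockout and intermediate in Atg16l1/Rnaseh2bΔIEC organoids, which thus kept more of both transcripts than the single knockouts did. Rnaseh2b ranged from 7.15 to 7.21 in Rnaseh2bΔIEC and from 7.68 to 7.92 in Atg16l1/Rnaseh2bΔIEC organoids, against 8.41 to 8.70 in WT. Atg16l1 ranged from 6.73 to 7.35 in Atg16l1ΔIEC and from 8.14 to 8.57 in Atg16l1/Rnaseh2bΔIEC organoids, against 9.43 to 9.54 in WT. The libraries came in pairs. Libraries 1 and 2, or 3 and 4, of a genotype deviated from its mean together (r from 0.41 to 0.86 across genes) and shared a sex by Xist, which was 7.56 to 7.80 in 8 libraries and 13.24 to 13.78 in 6, with the Y-linked Ddx3y the other way round. Both Rnaseh2bΔIEC libraries were male, and every other genotype had 2 male and 2 female libraries. Nothing states how many animals gave the libraries of a pair, so p-values measure the spread between libraries, which may be partly technical. All WT libraries were sequenced in lane 1, all Rnaseh2bΔIEC and Atg16l1ΔIEC libraries in lane 2, and the Atg16l1/Rnaseh2bΔIEC libraries 2 in each, the male ones in lane 2. Lane and genotype cannot be told apart where WT is compared with a single knockout.

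The organoids expressed enterocyte genes. All 11 enterocyte markers outside the 10 genes, such as the brush border enzymes Sis and Lct, passed the filter. Of 8 measured markers of fibroblasts, endothelium and immune cells, 2 passed the filter, and Col1a2, Cd3e and Cd79a were below 0 in every library. Of 4 measured markers of hepatocytes and adipocytes, Serpina1a and Adipoq were below 0 in every library, and the other 2 passed the filter, with a summed linear level of 1373 to 2082 for the list.

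Upstream sequence is shown for the 4 genes with a match to a searched motif, which was a TATA sequence alone for Apoa2 and a motif of an intestinal transcription factor for the other 3. RefSeq promoter windows of GRCm38.p6 (250 bases before to 50 after the start) were matched for 9 of the 10 genes, not for Apoc3, and 6 of them had upstream bases outside annotated exons. The searched letters, on both strands, were CAAAGTCC and CAAAGGTC for HNF4 factors, TTTATNG for CDX2 and TATAAA for a TATA box. The windows lie on the plus strand at chr1:171224804-171225053 (Apoa2), chr6:71199629-71199826 (Fabp1), chr3:122894822-122895071 (Fabp2) and chr12:7977427-7977647 (Apob), directly before each gene's first base. Capitals mark the matches.
Apoa2: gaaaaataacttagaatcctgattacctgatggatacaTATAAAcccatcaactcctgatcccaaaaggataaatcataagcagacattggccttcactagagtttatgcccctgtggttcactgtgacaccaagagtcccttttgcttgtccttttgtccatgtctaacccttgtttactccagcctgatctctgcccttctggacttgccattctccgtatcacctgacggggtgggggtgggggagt
Fabp1: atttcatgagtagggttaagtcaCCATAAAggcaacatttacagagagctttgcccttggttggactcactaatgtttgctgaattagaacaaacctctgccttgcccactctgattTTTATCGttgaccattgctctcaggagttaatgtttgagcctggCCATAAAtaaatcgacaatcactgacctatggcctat
Fabp2: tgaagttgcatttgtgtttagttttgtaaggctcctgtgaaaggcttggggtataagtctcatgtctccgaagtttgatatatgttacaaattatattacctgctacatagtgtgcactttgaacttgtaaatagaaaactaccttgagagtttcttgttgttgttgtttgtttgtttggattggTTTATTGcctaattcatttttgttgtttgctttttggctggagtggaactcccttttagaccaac
Apob: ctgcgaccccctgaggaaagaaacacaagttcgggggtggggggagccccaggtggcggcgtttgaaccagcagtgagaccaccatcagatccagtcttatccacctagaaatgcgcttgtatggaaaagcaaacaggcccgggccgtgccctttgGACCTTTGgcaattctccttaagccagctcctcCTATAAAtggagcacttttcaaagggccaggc
Distances are counted from the RefSeq start. For Apob and Fabp1 that start lies downstream of the printed bases, so their matches are nearer to the end of the printed sequence. Apob held an HNF4 match on the opposite strand 94 bases before the RefSeq start and a TATA box at 60 bases, which overlaps a CDX2 match at 61. Fabp1 held CDX2 matches at 227, 133 and 89 bases. The Apoa2 match was a TATA sequence at 212 bases, and Fabp2 had a CDX2 match at 65. Apoa1 and Cd36 had none of these letters in their windows. Over all 32851 promoter windows, CAAAGGTC was present in 1.01%, CAAAGTCC in 1.2%, TTTATNG in 9.81% and TATAAA in 12.4%. A match is a string of letters and does not show that a factor binds there.

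Per kilobase of exon, and back-transformed from the log2 scale, Fabp1 had the highest mean level of the 10 genes in WT organoids (48859). Fabp2 (8636) and Apoa4 (8373) followed closely and changed places in Rnaseh2bΔIEC organoids, where Apoa4 was at 21497 and Fabp2 at 20437. Apoa1 was at 4424 and Mttp at 3666 in WT, Apoc3 at 1129 and Apob at 700.1. Apoa2 (81.1) and Cd36 (16.9) were the lowest genes above the filter. The order of the other 7 genes above the filter was the same in all 4 genotypes. Apoc2, which encodes the activator of lipoprotein lipase, lay at the floor of the scale, between -1.49 and -1.47 in all 14 libraries. Its row is uncertain, because 646 of its 813 exon bases (79.5%) also belong to the same-strand gene Gm44805, and no difference is reported for it.

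Compared with WT, Rnaseh2bΔIEC organoids had higher values of all 9 genes above the filter. Both Rnaseh2bΔIEC libraries exceeded all 4 WT libraries for each of the 9, where 28.4% of the 12802 genes did so, and the rule that chose the genes used this contrast. The median difference was 1.26 on the log2 scale, against 0.00 over all genes tested. Both libraries also exceeded all 12 other libraries for 8 of the 9 genes (9.99% of all genes). Cd36 was the exception.

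Apoa2, which encodes a protein best known from high-density lipoprotein, differed most. Its values were 7.50 and 7.54 in the 2 Rnaseh2bΔIEC libraries, and 5.30, 5.24, 5.58 and 5.62 in the 4 WT libraries. Atg16l1ΔIEC libraries were at 5.39, 5.41, 5.58 and 5.34, and Atg16l1/Rnaseh2bΔIEC libraries at 5.75, 5.82, 5.38 and 5.51. The 2 Rnaseh2bΔIEC libraries thus stood 1.68 above the highest of the 12 others, which themselves spanned 0.58. The mean difference from WT was 2.09, or 4.25-fold, the fifth largest rise among all genes tested.

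Apoc3, an inhibitor of lipoprotein lipase, followed with a difference of 1.56 (2.95-fold). It was at 11.63 and 11.77 in Rnaseh2bΔIEC and at 10.49, 10.30, 9.86 and 9.89 in WT libraries. Its 2 neighbours in a cluster on chromosome 9 were also higher. Apoa4, an apolipoprotein made in quantity by the intestine, was at 15.24 and 15.26 against 14.12, 14.01, 13.67 and 13.71, a difference of 1.37. Apoa1, the main protein of high-density lipoprotein, was at 13.60 and 13.64 against 12.65, 12.56, 12.16 and 12.23, a difference of 1.22. None of these 3 genes overlapped between Rnaseh2bΔIEC and any other genotype, with gaps of 0.54 to 0.73.

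Among the fatty acid carriers, Fabp1 was at 15.77 and 16.01 in Rnaseh2bΔIEC and at 15.39, 15.14, 13.78 and 13.88 in WT libraries, a difference of 1.34. Its WT libraries were split into 2 high male and 2 low female values, and the gap to the highest other library was only 0.11. Fabp2 was at 14.24 and 14.30 against 13.27, 13.12, 12.82 and 12.84, a difference of 1.26 and a gap of 0.52. Cd36 was at 6.26 and 6.36 against 6.09, 6.03, 5.79 and 5.73, a difference of 0.40, the smallest of the 9. It overlapped with the Atg16l1ΔIEC libraries, which were at 6.02, 6.23, 6.36 and 6.32.

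The genes at the core of particle assembly differed less than the apolipoproteins above. Apob was at 13.88 and 13.99 in Rnaseh2bΔIEC and at 13.46, 13.33, 13.13 and 13.06 in WT libraries, a difference of 0.69 (1.61-fold). Mttp was at 14.95 and 15.06 against 14.69, 14.58, 14.31 and 14.27, a difference of 0.54 (1.45-fold). Both genes were separated from the highest other library by 0.15 and 0.16.

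**Figure D1:**
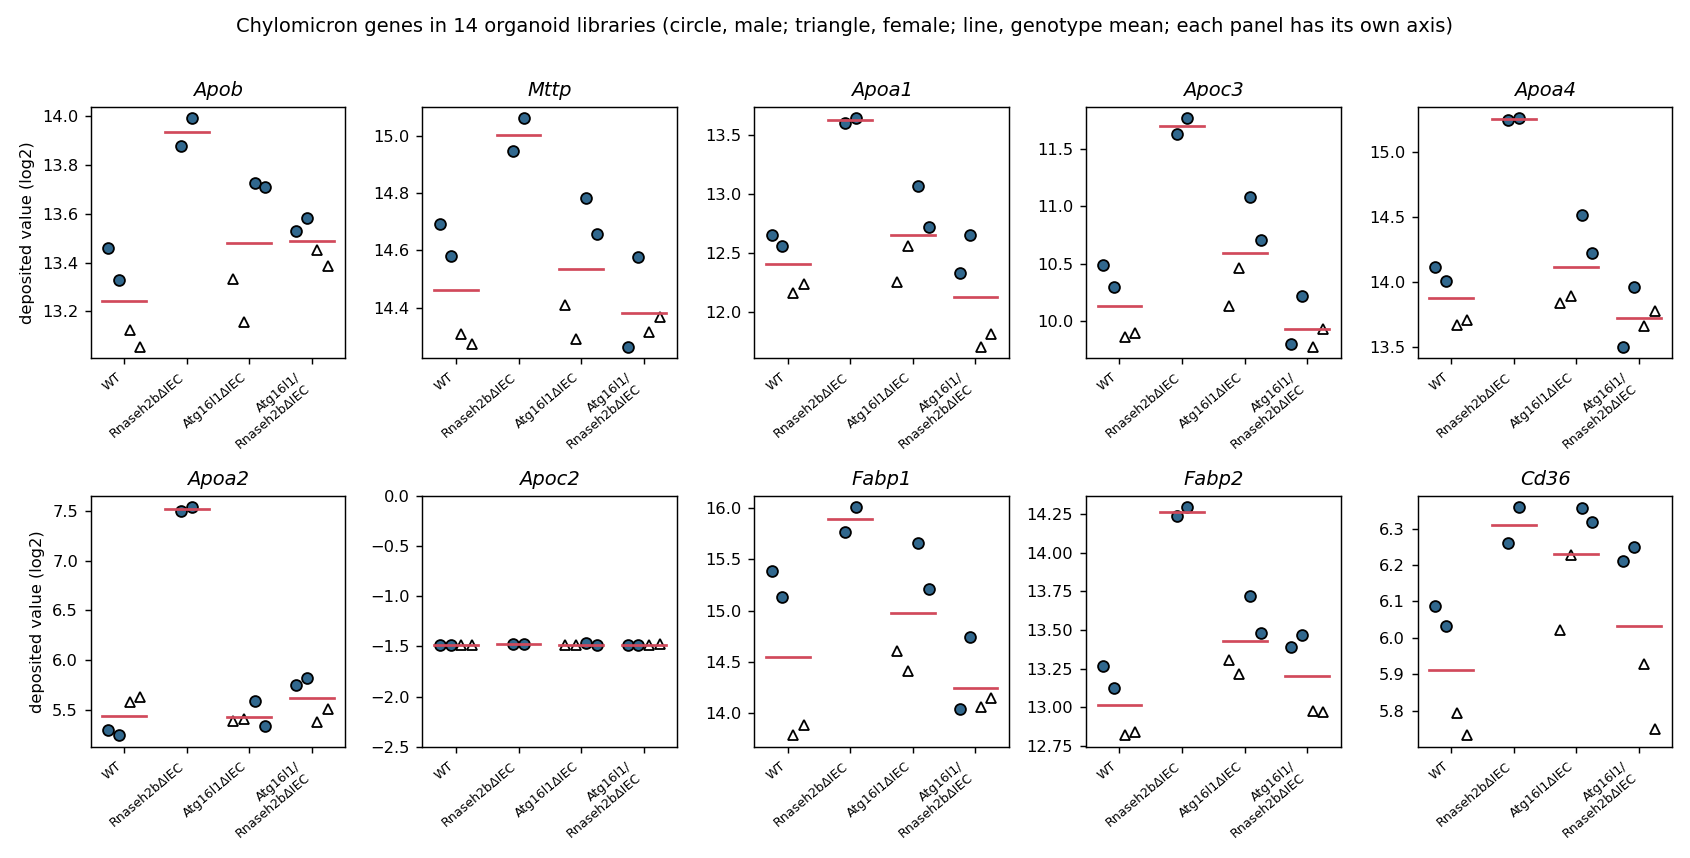
Deposited log2 value of each gene in each of the 14 libraries by genotype, with circles for male libraries, triangles for female libraries and a line at the genotype mean. The 2 Rnaseh2bΔIEC libraries lie above all other libraries for 8 genes, Cd36 overlaps with Atg16l1ΔIEC, and Apoc2 stays near -1.5 throughout.

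Since both Rnaseh2bΔIEC libraries were male, the sex of the libraries moved with this contrast. The male pair had the higher mean for 8 of the 9 genes in WT, for 9 of 9 in Atg16l1ΔIEC and for 9 of 9 in Atg16l1/Rnaseh2bΔIEC organoids. Both male libraries exceeded both female ones for 8, 8 and 5 of the 9 genes, respectively, where 32.4%, 30.6% and 35.5% of all genes did so. Fabp1 had the widest gap in WT, with male minus female of 1.43, followed by 0.93 in Atg16l1ΔIEC and 0.28 in Atg16l1/Rnaseh2bΔIEC organoids. Apoa2 was the exception, with -0.33 in WT. Each sex was 1 pair per genotype, so sex and pair cannot be told apart.

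Within the male libraries alone, Rnaseh2bΔIEC minus WT was 2.25 for Apoa2, 1.30 for Apoc3, 1.19 for Apoa4, 1.07 for Fabp2 and 1.02 for Apoa1. It was 0.63 for Fabp1, 0.54 for Apob, 0.37 for Mttp and 0.25 for Cd36. The median was 1.02, and all 9 genes stayed higher. In a fit with a lane term, which only the Atg16l1/Rnaseh2bΔIEC libraries inform and which there cannot be told apart from sex and pair, the differences were 1.74 for Apoa2, 0.49 for Apoa1 and 0.01 for Cd36, with a median of 0.80.

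**Figure D2:**
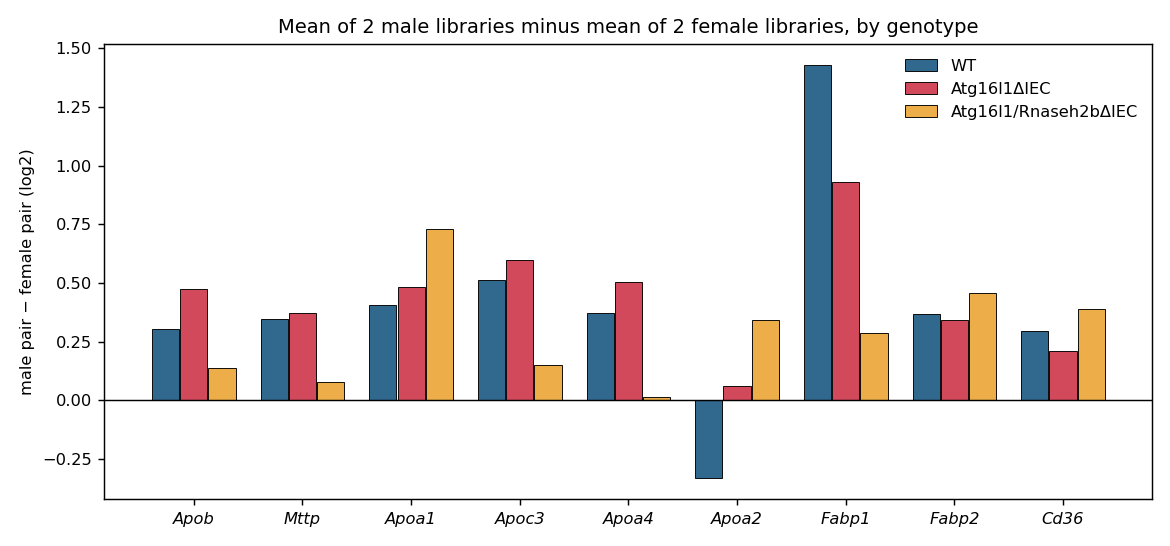
Mean of the 2 male libraries minus mean of the 2 female libraries (log2) for 9 genes, with a bar per genotype; Rnaseh2bΔIEC organoids had no female library. Bars are above 0 except for Apoa2 in WT (-0.33), and Fabp1 in WT is the tallest (1.43).

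Adding the Atg16l1 deletion came with lower values again. All 4 Atg16l1/Rnaseh2bΔIEC libraries were below both Rnaseh2bΔIEC libraries for each of the 9 genes, where 25.8% of all genes were. The differences, again a description because they use the same 2 libraries, were -1.91 for Apoa2, -1.76 for Apoc3, -1.64 for Fabp1, -1.53 for Apoa4 and -1.49 for Apoa1. Fabp2 differed by -1.07, Mttp by -0.62, Apob by -0.45 and Cd36 by -0.28. Within the male libraries, which all lay in lane 2 here, the same differences were -1.74 for Apoa2, -1.69 for Apoc3, -1.52 for Apoa4, -1.50 for Fabp1 and -1.13 for Apoa1, with a median of -1.13 over the 9 genes.

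The difference of Atg16l1/Rnaseh2bΔIEC from Atg16l1ΔIEC organoids minus the difference of Rnaseh2bΔIEC from WT organoids was -2.22 for Apoc3, -2.07 for Fabp1, -1.90 for Apoa2, -1.76 for Apoa4 and -1.74 for Apoa1. It was -1.48 for Fabp2, -0.70 for Mttp, -0.68 for Apob and -0.60 for Cd36. All 9 were negative, and since these values contain the contrast that chose the genes no test is given. Over all genes tested, 35.1% passed for this interaction, 17% upward and 18.1% downward. Among 56 other genes of the same route, described last, 3 passed upward and 31 downward. These calls use the same Rnaseh2bΔIEC libraries, and the lists were chosen with earlier results known, so they are no independent test of the 9 genes. With pairs as a random block 20 of the 56 passed (12.1% of all genes) and with a lane term 17 (20.2%). With pairs averaged 0 passed, but so did 0 of all genes, so that fit cannot tell these genes from others.

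Atg16l1 deletion alone was compared with WT by limma across all genes tested, with Benjamini-Hochberg adjustment. The comparison shares its WT libraries with the one that chose the genes. None of the 9 genes passed an adjusted p of 0.05, where 19.1% of all genes did (8.73% upward and 10.4% downward), and 3 had an unadjusted p under 0.05. These were Fabp2 with a difference of 0.42 ± 0.14 (SE; limma adjusted p = 0.052), Cd36 with 0.32 ± 0.12 (limma adjusted p = 0.069) and Apoc3 with 0.46 ± 0.19 (limma adjusted p = 0.097). Fabp2 was at 13.30, 13.21, 13.72 and 13.48 in Atg16l1ΔIEC libraries, and 3 of the 4 exceeded all WT libraries. For Cd36 it was again 3 of 4. Apoa2 differed by -0.01 (95% interval -0.23 to 0.22) and Mttp by 0.07 (-0.18 to 0.32) in this fit. With a sex term, a fit added after the data were seen, Fabp2, Cd36, Apoc3 and Apob (0.24) passed upward, 4 of 9 beside 26.3% of all genes. With a lane term the Fabp2 difference was -0.04, that of Apoa2 was -0.35 (95% interval -0.67 to -0.03, limma adjusted p = 0.13) and none of the 9 passed.

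Atg16l1/Rnaseh2bΔIEC organoids overlapped with WT for every gene. No gene passed the limma test (16.1% of all genes did, 8.1% upward and 8.01% downward), and none had an unadjusted p under 0.05. Apob, at 13.53, 13.58, 13.45 and 13.39, came closest, with a difference of 0.24 ± 0.12 (SE; limma adjusted p = 0.18). Apoa1, at 12.33, 12.65, 11.71 and 11.82, differed by -0.28 ± 0.20 (limma adjusted p = 0.37). Here a lane shared by both genotypes existed. Within lane 1, where the Atg16l1/Rnaseh2bΔIEC libraries are the female pair and the WT libraries of both sexes, Apoa1 was lower by -0.64 (limma adjusted p = 0.033), and it was the only 1 of the 9 to pass, beside 10.2% of all genes.

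The comparison of Atg16l1/Rnaseh2bΔIEC with Atg16l1ΔIEC organoids took its means from no library of the contrast that chose the genes. Its p-values rest on a spread estimated over all 14 libraries. The comparison sets organoids with both genes deleted, in which both transcripts were reduced less than in the single knockouts, against organoids with Atg16l1 deleted alone. Apoc3 fell, and it was the only 1 of the 9 genes to pass, where 25.1% of all genes did. Apoc3 was at 9.80, 10.22, 9.78 and 9.93 in Atg16l1/Rnaseh2bΔIEC and at 10.13, 10.46, 11.08 and 10.71 in Atg16l1ΔIEC libraries, a difference of -0.66 ± 0.19 (SE; limma adjusted p = 0.021). The groups overlapped, with 3 of 4 libraries below all Atg16l1ΔIEC libraries. The call was lost when pairs were treated as a random block (limma adjusted p = 0.15), with a lane term (-0.59, limma adjusted p = 0.067) and within lane 2. With pairs averaged it was also lost (limma adjusted p = 0.30), but there 0 of all genes passed. The same held without Atg16l1ΔIEC replicate 3 (-0.50, limma adjusted p = 0.064) or replicate 4 (-0.63, limma adjusted p = 0.060), where 14.3% of all genes passed each time. Without Atg16l1/Rnaseh2bΔIEC replicate 3 the call was lost as well (-0.61, limma adjusted p = 0.051). The call was kept with a sex term and within male or female libraries, where 31.7%, 49.9% and 31% of all genes passed. These fits were added after the data were seen, and each sex is 1 pair per genotype. The male libraries of both genotypes lay in lane 2, with mean Apoc3 values of 10.01 in Atg16l1/Rnaseh2bΔIEC and 10.90 in Atg16l1ΔIEC.

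Apoa1 differed by -0.52 ± 0.20 (limma adjusted p = 0.077) and Apoa4 by -0.39 ± 0.15 (limma adjusted p = 0.066) between these 2 genotypes. Apoa4 was at 13.50, 13.96, 13.66 and 13.78 against 13.84, 13.89, 14.52 and 14.22. Fabp1, at 14.04, 14.74, 14.06 and 14.14 against 14.60, 14.41, 15.66 and 15.21, had the widest interval (-0.73, 95% interval -1.50 to 0.05). Its 2 highest Atg16l1ΔIEC values were the male libraries. Apob was at 0.01 (-0.25 to 0.26). Apoa2 was 0.18 higher (limma adjusted p = 0.22). In the 6 libraries of these genotypes in lane 2, where Atg16l1/Rnaseh2bΔIEC is the male pair alone, it was 0.36 higher and passed (limma adjusted p = 0.027), the opposite direction to Apoc3 there (-0.59, limma adjusted p = 0.12). Within male libraries the Apoa2 difference was 0.32, and within female libraries 0.04. With a sex term, Apoc3, Apoa1, Apoa4, Fabp1, Fabp2 and Cd36 passed downward, 6 of 9 beside 31.7% of all genes. With a lane term none of these 6 passed, and the differences were -0.16 for Apoa1, -0.0017 for Fabp2 and -0.0022 for Cd36.

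**Figure D3:**
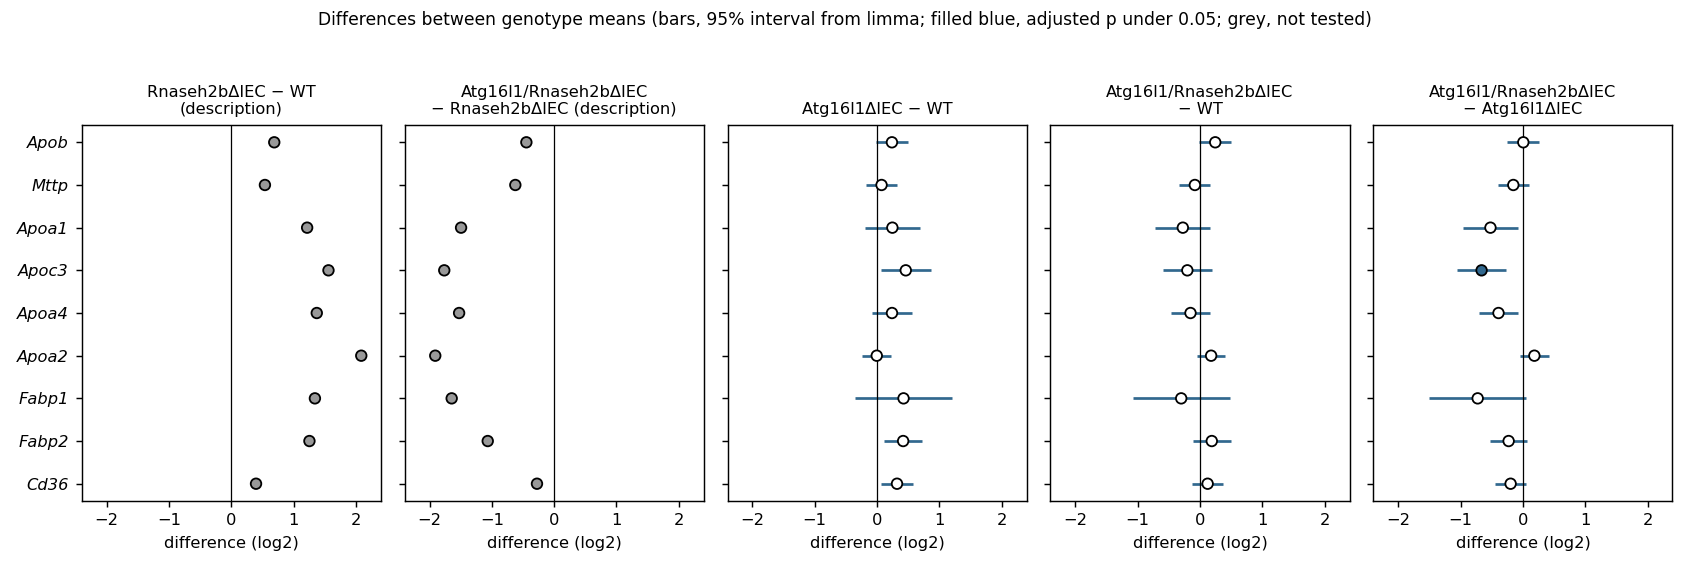
Difference between genotype means (log2) for 9 genes in 5 comparisons. Grey points are descriptions with no test; bars are 95% intervals from limma, and the only filled point among the 27 tested values is Apoc3 in Atg16l1/Rnaseh2bΔIEC against Atg16l1ΔIEC (-0.66).

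The 9 genes varied together across the libraries, apart from Apoa2. Over all 14 libraries the median Pearson correlation of a gene with the 8 others lay between 0.73 and 0.92. Leaving out the 2 Rnaseh2bΔIEC libraries, it was -0.11 for Apoa2 and between 0.61 and 0.79 for the other genes, over 12 libraries that share pairs. The genes most like the mean of the 9, by Pearson correlation over 14 libraries, were Dhrs1 (0.995), Slc25a45 (0.992), Pdzd2 (0.988), Ggt1 (0.988) and Cpt1a (0.988). Those most like Apoa2 were others, namely Pepd (0.985), 1810046K07Rik (0.973), Mbl2 (0.968), Slc28a1 (0.966) and 2810459M11Rik (0.966). Both rankings include the 2 Rnaseh2bΔIEC libraries, whose high values can dominate them, and neither was computed without those libraries.

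Apoa1 (chr9:46228580-46230466), Apoc3 (chr9:46232933-46235636) and Apoa4 (chr9:46240696-46243459) lie within 14.9 kb on GRCm38, with Apoc3 on the minus strand between the other two. The genes around the cluster, looked up after the values were seen, were not past the threshold between Rnaseh2bΔIEC and WT, with 0.01 for Sik3, -0.15 for Zpr1 and -0.09 for Bud13 (limma adjusted p = 0.92, 0.14 and 0.33). Apoa2 (chr1:171225054-171226379) had a neighbour that moved. Pcp4l1, 28786 bases away, rose by 0.997 ± 0.08 in Rnaseh2bΔIEC against WT (limma adjusted p = 1.1e-05) and fell by 0.98 between Atg16l1/Rnaseh2bΔIEC and Rnaseh2bΔIEC organoids (limma adjusted p = 3.4e-05). The closer Tomm40l (2540 bases) and Nr1i3 (4353 bases) differed from WT by -0.00 and 0.38 (limma adjusted p = 0.98 and 0.29). B4galt3, 43949 bases away, passed in the other direction (-0.21, limma adjusted p = 0.049). The remaining neighbours looked at, out to 98087 bases, did not pass in Rnaseh2bΔIEC against WT, where 26.7% of all genes did.

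Genes that act before and after the 10 in the same route were taken from 6 lists. Of 64 listed genes, 56 passed the filter, and in Rnaseh2bΔIEC against WT 27 rose and 3 fell by limma, where 14.4% and 12.3% of all genes did (26.7% in all). Their median difference was 0.22, against 0.00 over all genes. The counts were 26 and 3 with a sex term and 29 and 3 in the male libraries, but 9 and 0 with a lane term. With pairs as a random block, 6 genes in all passed. Of all genes, 25.4%, 37.1%, 11.7% and 5.69% passed in these fits, in the same order. The calls use the libraries that chose the 10 genes, so they are no independent test of them.

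Of the 16 genes for fatty acid activation, re-esterification and lipid droplets, 10 rose and none fell, with 3 called with a lane term and 1 with pairs as a random block. Mogat2, which makes diacylglycerol from absorbed monoacylglycerol, rose by 0.83 (limma adjusted p = 0.0049). Dgat1 and Dgat2, which complete triglyceride, rose by 0.41 and 0.36 (limma adjusted p = 0.0098 and 0.015), and the lipid droplet proteins Cideb and Plin2 both rose by 0.44 (limma adjusted p = 0.0059 and 0.016). With a lane term Mogat2 was at 0.82 (limma adjusted p = 0.072) and Dgat1 at 0.34 (limma adjusted p = 0.17).

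Among the 12 genes measured for particle editing, folding and export, 6 rose and none fell, with 1 called with a lane term and 2 with pairs as a random block. Apobec1, the enzyme that edits Apob mRNA, rose by 0.85 (limma adjusted p = 0.00017), and also passed in the fit with a lane term (0.82, limma adjusted p = 0.0085) and with pairs as a random block (limma adjusted p = 0.0030). Sar1b, a GTPase of the coat that exports chylomicrons from the endoplasmic reticulum, rose by 0.37 (limma adjusted p = 0.014). Lpcat3, which remodels phospholipids, rose by 0.33 (limma adjusted p = 0.0035). Mia3, another export factor, was at -0.04 (limma adjusted p = 0.52).

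Cholesterol transport was covered by 6 genes, of which 4 rose. None of the 4 passed with a lane term or with pairs as a random block. The sterol exporters Abcg5 and Abcg8 rose by 0.57 and 0.54 (limma adjusted p = 0.010 and 0.0040), Scarb1, a lipoprotein receptor, by 0.55 (limma adjusted p = 0.016), and Abca1, which loads cholesterol onto Apoa1, by 0.87 (limma adjusted p = 0.038). Npc1l1, which takes up cholesterol, was at 0.04 (limma adjusted p = 0.84). Receptors and lipases went both ways, with Lipa up by 0.41 and Vldlr down by -0.75 (limma adjusted p = 0.0057 and 0.011) among 5 genes. The Vldlr value was -0.04 with a lane term. Apoe and Apoh, the other apolipoproteins above the filter, were at 0.10 and -0.02 (limma adjusted p = 0.63 and 0.84).

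Transcription regulators were split. Of 15, 6 rose and 2 fell, with 3 and 0 called with a lane term and 2 and 0 with pairs as a random block. Creb3l3, a membrane-bound factor with apolipoprotein targets, rose by 1.35 (limma adjusted p = 0.016), Hnf4g by 0.55 (limma adjusted p = 0.0035) and Rxra by 0.31 (limma adjusted p = 0.00097). Ppargc1a and Pparg fell by 0.55 and 0.27 (limma adjusted p = 0.010 and 0.037). Hnf4a, the paralogue of Hnf4g, was at -0.02 (limma adjusted p = 0.73) and Cdx2 at -0.02 (limma adjusted p = 0.76). Creb3l3 and Hnf4g did not pass with a lane term (1.13 and 0.33, limma adjusted p = 0.21 and 0.17).

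**Figure D4:**
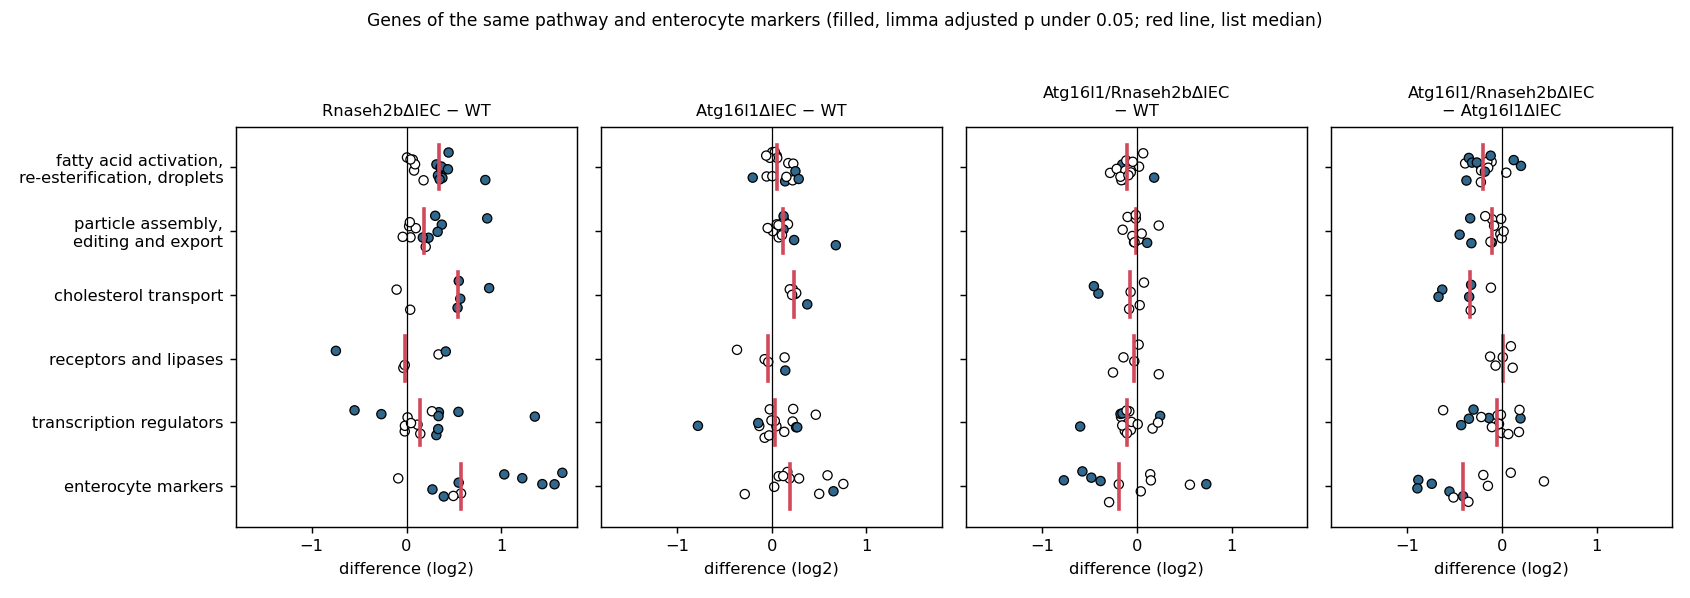
Difference between genotype means (log2) for pathway genes and enterocyte markers in 4 comparisons, 1 point per gene, filled where the limma adjusted p is under 0.05, with a red line at each list's median. Most filled points lie above 0 in Rnaseh2bΔIEC against WT and below 0 in Atg16l1/Rnaseh2bΔIEC against Atg16l1ΔIEC.

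In the other comparisons fewer pathway genes moved upward. Atg16l1ΔIEC against WT had 11 higher and 3 lower, where 8.73% and 10.4% of all genes were. With a lane term 6 of the 56 were higher and 1 lower, where 12.4% of all genes passed. With pairs as a random block 2 were higher and 1 lower, where 3% of all genes passed. Among the 11 higher were Apobec1 (0.68, limma adjusted p = 0.00024) and Soat2, which esterifies cholesterol (0.38, limma adjusted p = 0.0068). Atg16l1/Rnaseh2bΔIEC against WT had 3 higher and 6 lower. These 9 of 56 are near the 16.1% of all genes called there, and 0 passed with pairs as a random block. Scarb1 and Npc1l1 were among the genes that fell, with Scarb1 at -0.45 and Npc1l1 at -0.40 (limma adjusted p = 0.026 and 0.018). Against Rnaseh2bΔIEC organoids, Atg16l1/Rnaseh2bΔIEC organoids had 1 higher and 34 lower, where 25.5% of all genes passed (11.1% upward and 14.4% downward). Of all genes, 5.41% passed there with pairs as a random block and 0 with pairs averaged. The 35 calls became 15 with pairs as a random block, 0 with pairs averaged, and 21 or 9 without Rnaseh2bΔIEC replicate 1 or 2. Atg16l1/Rnaseh2bΔIEC against Atg16l1ΔIEC had 3 higher and 18 lower, where 12.6% and 12.5% of all genes were. With a lane term the 6 lists had 3 higher and 17 lower, where 31.1% of all genes passed. Within lane 2 they had 0 higher and 10 lower (16.2% of all genes). With pairs as a random block they had 0 higher and 6 lower (3.73%). Scarb1 (-0.67), Npc1l1 (-0.63), Apobec1 (-0.45), Rxra (-0.43) and Hnf4g (-0.35) were among the genes that fell (limma adjusted p = 0.0025, 0.0012, 0.0034, 5.0e-05 and 0.015).

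Cell type markers moved in the same comparisons. In Rnaseh2bΔIEC against WT, 8 of 11 enterocyte markers rose and none fell (2 with a lane term and 4 with pairs as a random block), with Rbp2 at 1.64 and Lct at 1.56 (limma adjusted p = 0.0024 and 0.0063). Their summed linear level was 177490 to 195186 in Rnaseh2bΔIEC, 114402 to 148723 in WT, 112760 to 167628 in Atg16l1ΔIEC and 93447 to 122902 in Atg16l1/Rnaseh2bΔIEC libraries. For the 10 chylomicron genes the same sums were 176406 to 192383, 69172 to 116239, 83148 to 141357 and 74012 to 99069. Of 6 goblet cell markers 3 fell in Rnaseh2bΔIEC, of 6 stem cell markers 2 fell, and of 6 Paneth cell markers none passed. In Atg16l1/Rnaseh2bΔIEC against Atg16l1ΔIEC, 5 of 11 enterocyte markers fell, while 6 of 6 goblet, 5 of 6 Paneth and 5 of 6 stem cell markers rose. With pairs as a random block these counts were 2, 3, 2 and 3. In Atg16l1/Rnaseh2bΔIEC against Rnaseh2bΔIEC, 9 of 11 enterocyte markers fell and 6 of 6 goblet cell markers rose (6 and 5 with pairs as a random block). In Atg16l1ΔIEC against WT, 5 of 6 stem cell and 4 of 6 goblet cell markers fell (2 and 2 with pairs as a random block). Atg16l1/Rnaseh2bΔIEC organoids against WT had 4 enterocyte markers lower and 1 higher, and 4 Paneth cell markers higher (1, 0 and 0 with pairs as a random block). In bulk organoids, more enterocytes and more RNA of these genes per enterocyte cannot be told apart, and the part of cell composition in the values above was not tested.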

How the data were processed

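RNA of 14 organoid cultures was sequenced as stranded mRNA (single reads of 50 bases). Before deposit, the authors trimmed reads (cutadapt), aligned them (TopHat2, GRCm38), counted them per gene (HTSeq) and normalised the table, by their account with DESeq2. Tool versions are not given in the sources used here. The authors deposited log2 values for 18781 genes, by a transformation that is not named. Whole reads could not be recovered, so no count model was run and depth is unknown. All columns were mapped to a sample. Symbols were matched for 99.7% of identifiers.

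The 12802 genes whose mean was 3.32 or more (10 on the linear scale) were fitted with limma 3.58.1 (R 4.3.3), with a mean trend, 1 mean per genotype over all 14 libraries, and Benjamini-Hochberg adjustment at 0.05. On simulated data with 200 changed genes, this recovered, at a log2 change of 0.25, 48% for Atg16l1ΔIEC against WT, 59.5% for Atg16l1/Rnaseh2bΔIEC against WT and 60% for Atg16l1/Rnaseh2bΔIEC against Atg16l1ΔIEC, and at 0.5, 93%, 91% and 94%. The simulated libraries varied independently, whereas the correlation within the real pairs was estimated at 0.65. These rates therefore do not measure recovery in paired libraries, which may be lower. The 10 genes and all lists were chosen with earlier results of these data known. The other genes named are list members that passed a test, the 5 genes most correlated with the mean z-score of the 9 above the filter and the 5 with Apoa2. Chromosomal neighbours, and list members named without passing, were chosen after their values were seen. Sex was read from Xist and Ddx3y, not from labels, and fits with a sex term or within a sex were added after the data were seen. Positions and exon lengths are from GENCODE M21.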

Additional observations from a re-analysis of the deposited data

Results flagged for a closer look

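Of the values of 9 genes in the 3 genotypes with 4 libraries, 1 held a library far from the other 3. Fabp1 was at 14.74 in Atg16l1/Rnaseh2bΔIEC replicate 2, and its gap to the nearest library was 0.85 of the range, above Dixon's critical value for 4 samples. Chance flags about 1 in 20 groups, and 27 were looked at.

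By the interaction term of limma, 34 of the 56 pathway genes passed (35.1% of all genes). The term sets the difference of Atg16l1/Rnaseh2bΔIEC from Atg16l1ΔIEC organoids against that of Rnaseh2bΔIEC from WT. Both Rnaseh2bΔIEC libraries were male and in lane 2, and all WT libraries were in lane 1. Atg16l1/Rnaseh2bΔIEC organoids also kept more of both targeted transcripts than the single knockouts, so the term does not isolate the deletions. The 6 with the largest values were Creb3l3 (-1.97, limma adjusted p = 0.0065), Apobec1 (-1.30, limma adjusted p = 4.1e-05), Scarb1 (-1.22, limma adjusted p = 0.00054), Mogat2 (-1.22, limma adjusted p = 0.0015), Abcg5 (-0.90, limma adjusted p = 0.0024) and Hnf4g (-0.89, limma adjusted p = 0.00054). With a lane term 17 of the 56 passed (20.2% of all genes) and with pairs as a random block 20 (12.1%). With pairs averaged 0 passed, as over all genes.

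In some comparisons both male libraries moved one way and both female libraries the other. The difference between the sexes was not tested, and each sex is 1 pair per genotype. Apoa2 in Atg16l1ΔIEC against WT was 0.19 in male and -0.20 in female libraries, and in Atg16l1/Rnaseh2bΔIEC against WT 0.52 and -0.16. In the same comparison Fabp1 was at -0.87 in male and 0.27 in female libraries, and Mttp at -0.21 and 0.050. Apob in Atg16l1/Rnaseh2bΔIEC against Atg16l1ΔIEC was at -0.16 in male and 0.18 in female libraries.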

How the results depend on the processing

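Fits with a sex term, or within male or female libraries, were added after the data were seen, and a fit within 1 sex may rest on 1 animal per genotype. In Atg16l1ΔIEC against WT, 0 of the 9 genes passed. With a filter of 50, upper quartile scaling, total scaling or only the 2 groups, 1 (Fabp2) passed, beside 18.6% to 21.4% of all genes. With a sex term 4 passed, in male libraries 4 and in female libraries 6, beside 26.3%, 31.6% and 30.1% of all genes. In Atg16l1/Rnaseh2bΔIEC against WT, 0 passed, and 1 with a lane term or within lane 1 (11.1% and 10.2% of all genes). With a sex term 2 passed, in male libraries 5 and in female libraries 4, beside 22.5%, 41.7% and 16.2% of all genes. In Atg16l1/Rnaseh2bΔIEC against Atg16l1ΔIEC, 1 passed. With pairs as a random block, with pairs averaged or with a log2 difference over 1, 0 passed, beside 3.73%, 0% and 0.32% of all genes. With a sex term 6 passed, in male libraries 7 and in female libraries 7, beside 31.7%, 49.9% and 31% of all genes.

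Pathway genes past the threshold in Rnaseh2bΔIEC against WT were 30, 9 with a lane term, 6 with pairs as a random block, 0 with pairs averaged and 1 with a log2 difference over 1. In Atg16l1ΔIEC against WT they were 14, with 7 under a lane term and 3 under random pairs (12.4% and 3% of all genes). With a sex term they were 22, in male libraries 29 and in female libraries 23. Atg16l1/Rnaseh2bΔIEC organoids against WT had 9, 15 with a sex term, 26 in male and 15 in female libraries, and 0 with random pairs. Against Atg16l1ΔIEC, Atg16l1/Rnaseh2bΔIEC organoids had 21, with 6 under random pairs and 10 within lane 2 (3.73% and 16.2% of all genes). In male libraries there were 35. These last 3 comparisons gave 0 with pairs averaged and 0 with a log2 difference over 1. In their male libraries 31.6%, 41.7% and 49.9% of all genes passed, in the same order. Averaging leaves fewer samples, and with it at most 1 of all genes passed in any comparison, so its counts of 0 do not set these genes apart. The cause of the other changes was not tested.

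The median over the 9 genes in Rnaseh2bΔIEC against WT was 1.26, 0.80 with a lane term, 0.95 with a sex term and 1.02 in male libraries. In Atg16l1/Rnaseh2bΔIEC against Rnaseh2bΔIEC it was -1.49, -1.13 with a lane term, within lane 2 or in male libraries, and -1.20 with a sex term.

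Some directions turned, none of a difference that had passed the threshold. In Atg16l1ΔIEC against WT a lane term gave -0.48 for Apoa1, -0.0078 for Mttp, -0.037 for Fabp2 and -0.071 for Cd36, upper quartile scaling gave 0.0055 for Apoa2, and male libraries gave 0.19 for Apoa2. In Atg16l1/Rnaseh2bΔIEC against WT a lane term, and also lane 1 alone, gave -0.038 for Fabp2 and -0.073 for Cd36, and female libraries gave -0.16 for Apoa2, 0.028 for Apoa4, 0.050 for Mttp and 0.27 for Fabp1. Male libraries gave -0.16 for Apob in Atg16l1/Rnaseh2bΔIEC against Atg16l1ΔIEC.

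Leaving out 1 library at a time, 0 to 2 of the 9 genes passed in Atg16l1ΔIEC against WT, 0 in Atg16l1/Rnaseh2bΔIEC against WT and 0 to 3 in Atg16l1/Rnaseh2bΔIEC against Atg16l1ΔIEC. In the last, Apoa1 and Apoa4 also passed without Atg16l1ΔIEC replicate 1 or Atg16l1/Rnaseh2bΔIEC replicate 2, and Apoa4 without Atg16l1ΔIEC replicate 2. Medians ranged from 1.14 to 1.34 (Rnaseh2bΔIEC against WT) and from -1.60 to -1.35 (Atg16l1/Rnaseh2bΔIEC against Rnaseh2bΔIEC). Pathway counts ranged from 7 to 32, 9 to 18, 4 to 11 and 12 to 25 in the order above, with 8 and 7 when either Rnaseh2bΔIEC library was left out. Apoa2 ranged from -0.070 to 0.058 and Mttp from -0.011 to 0.15 in Atg16l1ΔIEC against WT, and Apob from -0.10 to 0.088 in Atg16l1/Rnaseh2bΔIEC against Atg16l1ΔIEC.

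Same-numbered libraries of different genotypes correlated at -0.50 to 0.30, so numbers did not pair them. With the replicate number as a block, 0, 0 and 1 of the 9 genes passed in the 3 tested comparisons, beside 20.8%, 16.6% and 26.2% of all genes. Apoc3 had a limma adjusted p of 0.039.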
